A study of Mus musculus with 42 samples.

Results

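Cyp2b9 is a cytochrome P450 gene of mouse liver, and it was followed here together with 9 further genes named as targets of the xenobiotic receptors CAR and PXR. The members are Cyp2b9, Cyp2c29, Cyp2c37, Cyp2c50, Cyp2c54, Cyp2c55, Cyp3a11, Cyp3a44, Alas1 and Gadd45b, 10 of the 17989 genes with a probe set of a single gene symbol. Each of the 10 had exactly 1 such probe set. The members were chosen by their log2 changes on a high-fat diet (HFD) against control. Cyp2b9 was chosen for an increase that grew over the HFD times, and the other 9 with their changes in view. Those values, and the changes of Cyp2b9 between HFD times, are therefore given as a description. Nothing is read from any count of members called in the contrasts against control. The question was whether the increase of Cyp2b9 was accompanied by other targets of these receptors.

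The study measured liver RNA of wild-type male C3HeB/FeJ mice, an inbred strain, on 42 Affymetrix whole-transcript arrays. The labels give 18 controls on a low-fat diet for up to 21 days, aged 15 to 17 weeks, and 8 arrays each after 7 days of HFD (15 weeks old), 14 days of HFD (16 weeks) and 21 days of HFD (17 weeks). All animals were housed singly and random fed. Age and time on the diet therefore increased together among the HFD groups, whereas the controls span the ages. The titles of the controls and of the 21-day arrays carry the word reanalysis and those of the 7-day and 14-day arrays do not, so any batch marked by it coincides with diet in the 7-day and 14-day comparisons, and with time in 21 against 14 or 7 days, and cannot be told apart from them. Nothing in the labels says that the replicates are separate animals, so each p-value reflects only array-to-array spread, some of which may be technical.

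CAR (gene Nr1i3) and PXR (gene Nr1i2) are nuclear receptors that sense drugs, bile acids and steroids in hepatocytes. Each binds DNA as a partner of the retinoid X receptor, and their classical targets are cytochrome P450 genes of the Cyp2b, Cyp2c and Cyp3a subfamilies together with conjugating enzymes and transporters. In mouse liver Cyp2b9 is also known as a female-predominant gene with low expression in adult males. Several nuclear receptors recognise a hexamer close to AGGTCA, and AGTTCA is a common variant in elements bound by CAR and PXR.

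The 250 bases before the annotated start of 6 members are shown because these genes hold the hexamers or are the closest pairs among the members. The sequences are from RefSeq (build GRCm38.p6), 5′ to 3′ on the strand of the gene, and capitals mark AGGTCA or AGTTCA found on either strand. Of the 10 members, 9 had an entry and Cyp2c54 had none. The windows lie at chr7:26173159-26173408 (plus strand) for Cyp2b9, chr5:145879855-145880104 (minus strand) for Cyp3a11, chr5:145805875-145806124 (minus strand) for Cyp3a44, chr19:39286835-39287084 (plus strand) for Cyp2c29, chr19:39992174-39992423 (plus strand) for Cyp2c37 and chr19:40089429-40089678 (plus strand) for Cyp2c50.
Cyp2b9: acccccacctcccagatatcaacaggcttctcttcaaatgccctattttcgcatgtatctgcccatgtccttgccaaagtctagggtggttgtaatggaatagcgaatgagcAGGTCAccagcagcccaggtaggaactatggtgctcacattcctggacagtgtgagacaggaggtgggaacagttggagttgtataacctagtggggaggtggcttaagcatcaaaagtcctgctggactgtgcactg
Cyp3a11: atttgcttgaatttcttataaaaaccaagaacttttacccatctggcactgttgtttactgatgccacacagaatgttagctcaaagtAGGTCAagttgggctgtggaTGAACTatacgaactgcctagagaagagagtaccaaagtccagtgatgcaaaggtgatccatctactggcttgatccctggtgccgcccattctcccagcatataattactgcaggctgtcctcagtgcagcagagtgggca
Cyp3a44: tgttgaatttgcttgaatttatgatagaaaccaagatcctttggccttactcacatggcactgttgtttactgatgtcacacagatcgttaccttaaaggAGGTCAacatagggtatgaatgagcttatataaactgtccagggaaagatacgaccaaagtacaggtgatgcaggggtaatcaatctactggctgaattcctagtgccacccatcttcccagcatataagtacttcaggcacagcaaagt
Cyp2c29: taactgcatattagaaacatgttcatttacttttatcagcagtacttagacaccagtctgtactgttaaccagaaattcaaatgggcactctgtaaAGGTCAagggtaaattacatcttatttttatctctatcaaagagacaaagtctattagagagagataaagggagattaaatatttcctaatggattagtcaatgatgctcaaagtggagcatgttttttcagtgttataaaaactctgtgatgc
Cyp2c37: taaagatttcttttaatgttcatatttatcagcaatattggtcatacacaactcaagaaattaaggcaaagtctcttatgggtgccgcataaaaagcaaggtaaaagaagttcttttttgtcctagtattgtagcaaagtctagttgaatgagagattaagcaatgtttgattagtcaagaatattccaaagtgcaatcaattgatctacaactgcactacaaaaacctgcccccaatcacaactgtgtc
Cyp2c50: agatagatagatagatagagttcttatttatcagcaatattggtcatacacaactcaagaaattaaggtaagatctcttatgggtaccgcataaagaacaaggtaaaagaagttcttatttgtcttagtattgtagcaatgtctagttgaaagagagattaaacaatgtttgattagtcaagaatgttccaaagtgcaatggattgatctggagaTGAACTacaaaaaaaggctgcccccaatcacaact

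AGGTCA, searched on both strands, was present in 4 of the 9 members with a window, against 14.0% of the 32851 promoter windows of the table. Counting back from the annotated start, it lay at bases -138 to -133 in Cyp2b9, -154 to -149 in Cyp2c29, -162 to -157 in Cyp3a11 and -150 to -145 in Cyp3a44, each on the strand of the gene. AGTTCA was present on the opposite strand in Cyp2c50 (bases -35 to -30) and Cyp3a11 (bases -142 to -137), 2 of 9 members against 11.8% of all windows. These hexamers do not overlap each other, and a match describes the letters only. The windows of Cyp2c37 and Cyp2c50 were identical at 84.3% of aligned positions and those of Cyp3a11 and Cyp3a44 at 72.1%. Cyp2b9 lies on chromosome 7, the 5 Cyp2c members on chromosome 19, the 2 Cyp3a members on chromosome 5, Alas1 on chromosome 9 and Gadd45b on chromosome 10.

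Cyp2b9 was close to background in nearly all controls and well above it after each time on the diet. On the log2 scale of the arrays, controls ran from 2.10 to 5.33 with a median of 2.53. The 7-day arrays ran from 3.38 to 6.52 (median 4.62), the 14-day arrays from 2.86 to 6.40 (median 4.40) and the 21-day arrays from 4.42 to 6.96 (median 6.47). Taking the 95th percentile of 929 olfactory receptor genes, log2 2.86, as a background level, 16 of 18 controls were at or below it, and 0 of 8, 1 of 8 and 0 of 8 arrays at 7, 14 and 21 days. Every HFD array exceeded the control mean of 2.67, and the 21-day arrays were the highest as a group. The groups overlapped all the same: 2 of 8, 2 of 8 and 7 of 8 HFD arrays at 7, 14 and 21 days lay above every control. At 7 and 21 days the overlap came from 1 control that stood apart. At 14 days array 4 (2.86) also lay below control 11 (3.18).

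**Figure D1:**
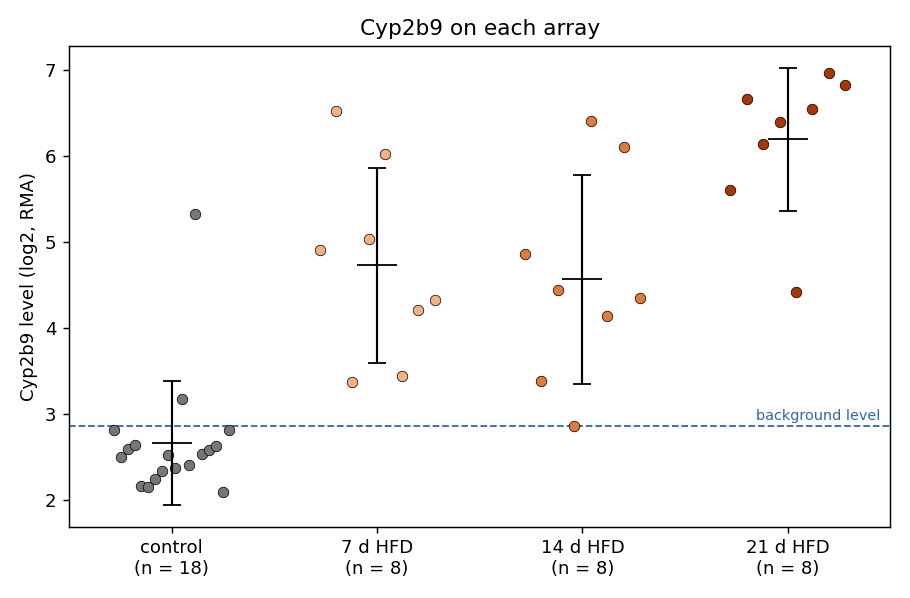
Cyp2b9 on each of the 42 arrays (points, log2 RMA value) by group, with the mean and SD of each group in black and the background level of 2.86 as a dashed line. Of the 18 controls, 16 lie at or below the line and 1 lies at 5.33, whereas 7 of the 8 arrays at 21 days of HFD lie above every control.

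The mean of Cyp2b9 was 2.67 ± 0.72 in controls (SD, n = 18), 4.73 ± 1.13 at 7 days, 4.57 ± 1.21 at 14 days and 6.19 ± 0.83 at 21 days of HFD (SD, n = 8 each). The log2 change against control was 2.06 at 7 days (SE 0.37, 95% interval 1.32 to 2.81), 1.90 at 14 days (SE 0.37, 1.15 to 2.65) and 3.52 at 21 days (SE 0.37, 2.78 to 4.27). In linear terms these are 4.18-fold, 3.73-fold and 11.5-fold higher signals. With most controls at background, the size of each fold depends on the background of the array as well as on the transcript. In liver tissue, more cells expressing the gene and more transcript per cell cannot be told apart.

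Over the 8 arrays a group, the 14-day and 7-day means of Cyp2b9 lay within their spread (log2 change -0.16, SE 0.44, 95% interval -1.04 to 0.72), and the 21-day mean was higher than the 14-day mean (log2 change 1.62, SE 0.44, 95% interval 0.75 to 2.50). The course at 14 days differed by array number: arrays 1 to 4 averaged 4.96 ± 1.28, 3.89 ± 0.92 and 6.20 ± 0.45 at 7, 14 and 21 days, and arrays 5 to 8 averaged 4.50 ± 1.09, 5.25 ± 1.17 and 6.19 ± 1.19 (SD, n = 4 each). The 21-day arrays alone of the 3 HFD groups carry the word reanalysis in their titles, so the step to 21 days and that mark cannot be told apart. At 21 days 7 of 8 arrays were above the 14-day mean. Between 21 and 7 days the log2 change was 1.46 (SE 0.44). Across all genes, limma called 0 genes between 14 and 7 days (0% of 17989), 0 between 21 and 14 days (0%) and 1, which was lower, between 21 and 7 days (0.00556%). At an unadjusted p under 0.05 limma's count of all genes was 451, 715 and 1283 in the same comparisons. Cyp2b9 had the largest upward log2 change of the 17989 genes both for 21 against 14 days and for 21 against 7 days. It was chosen for its growing increase, so this rank is a description only.

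The control that stood apart was number 13, with Cyp2b9 at 5.33, against 2.10 to 3.18 in the other 17. It was also the highest of the 18 controls for Alas1 (9.84, against 5.12 to 9.41 in the others) and for 2 further Cyp2c genes, Cyp2c38 (5.14, against 2.43 to 4.41) and Cyp2c39 (7.61, against 4.53 to 7.02). It was the highest control for Pck1, which encodes the gluconeogenic enzyme PEPCK (10.58, against 8.27 to 10.48), and for the fatty acid omega-hydroxylase genes Cyp4a31 (5.17, against 2.95 to 4.89) and Cyp4a10 (4.77, against 3.78 to 4.74). It was the lowest for the hormone gene Fgf21 (4.51, against 4.84 to 5.79), and 17 of 18 from the highest for the nuclear RNA Malat1 (6.06). These other genes of control 13 were looked up after its Cyp2b9 value was seen. Among the rest of those looked up, control 13 lay within the range of the other controls. Its rank from the highest was 2 of 18 for Cd36, 5 of 18 for Cyp4a14, 8 of 18 for Ppargc1a and 12 of 18 for Vnn1. Control 13 did not stand apart for the remaining members: it ranked 11 of 18 for Cyp3a11, 13 of 18 for Cyp3a44 and 17 of 18 for Cyp2c55. Without it the log2 change of Cyp2b9 was 2.22, 2.06 and 3.68 at 7, 14 and 21 days.

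The Cyp2c members encode P450 enzymes of a subfamily that oxidises arachidonic acid and other fatty acids, and Cyp2c29 is a widely used mouse marker of CAR activation. Cyp2c29 ran from 10.38 to 11.61 in controls (median 11.27), 11.13 to 11.49 at 7 days (median 11.36), 10.68 to 11.38 at 14 days (median 11.25) and 10.85 to 11.70 at 21 days (median 11.34). The ranges overlapped almost wholly. Its log2 change was 0.15, -0.02 and 0.09 at 7, 14 and 21 days (SE 0.11 each), with a 95% interval of -0.12 to 0.31 at 21 days.

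The other 4 Cyp2c members had group means close to control. Cyp2c37 differed from control by -0.18, -0.17 and 0.07 in log2 (SE 0.18 each), Cyp2c50 by -0.06, -0.10 and -0.01 (SE 0.16) and Cyp2c54 by -0.14, -0.12 and 0.12 (SE 0.12). The 21-day value of Cyp2c50 averages opposite directions, -0.43 on HFD arrays 1 to 4 and 0.40 on arrays 5 to 8. The other Cyp2c members split likewise at 21 days, below the control mean on arrays 1 to 4 and above it on arrays 5 to 8. Cyp2c37 averaged 8.73 and 9.54 (control 9.07) and Cyp2c54 8.87 and 9.29 (control 8.96). Cyp2c55 averaged 3.68 and 4.32 (control 4.21) and Cyp2c29 11.05 and 11.51 (control 11.18). Cyp2c55, known in mouse liver as inducible through CAR and PXR, was dimmer, with controls between 3.66 and 5.10. Its log2 change was 0.06, -0.35 and -0.21 (SE 0.19), and the 14-day value rests in part on 2 arrays, at 2.77 and 2.95, that lay below every control.

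**Figure D2:**
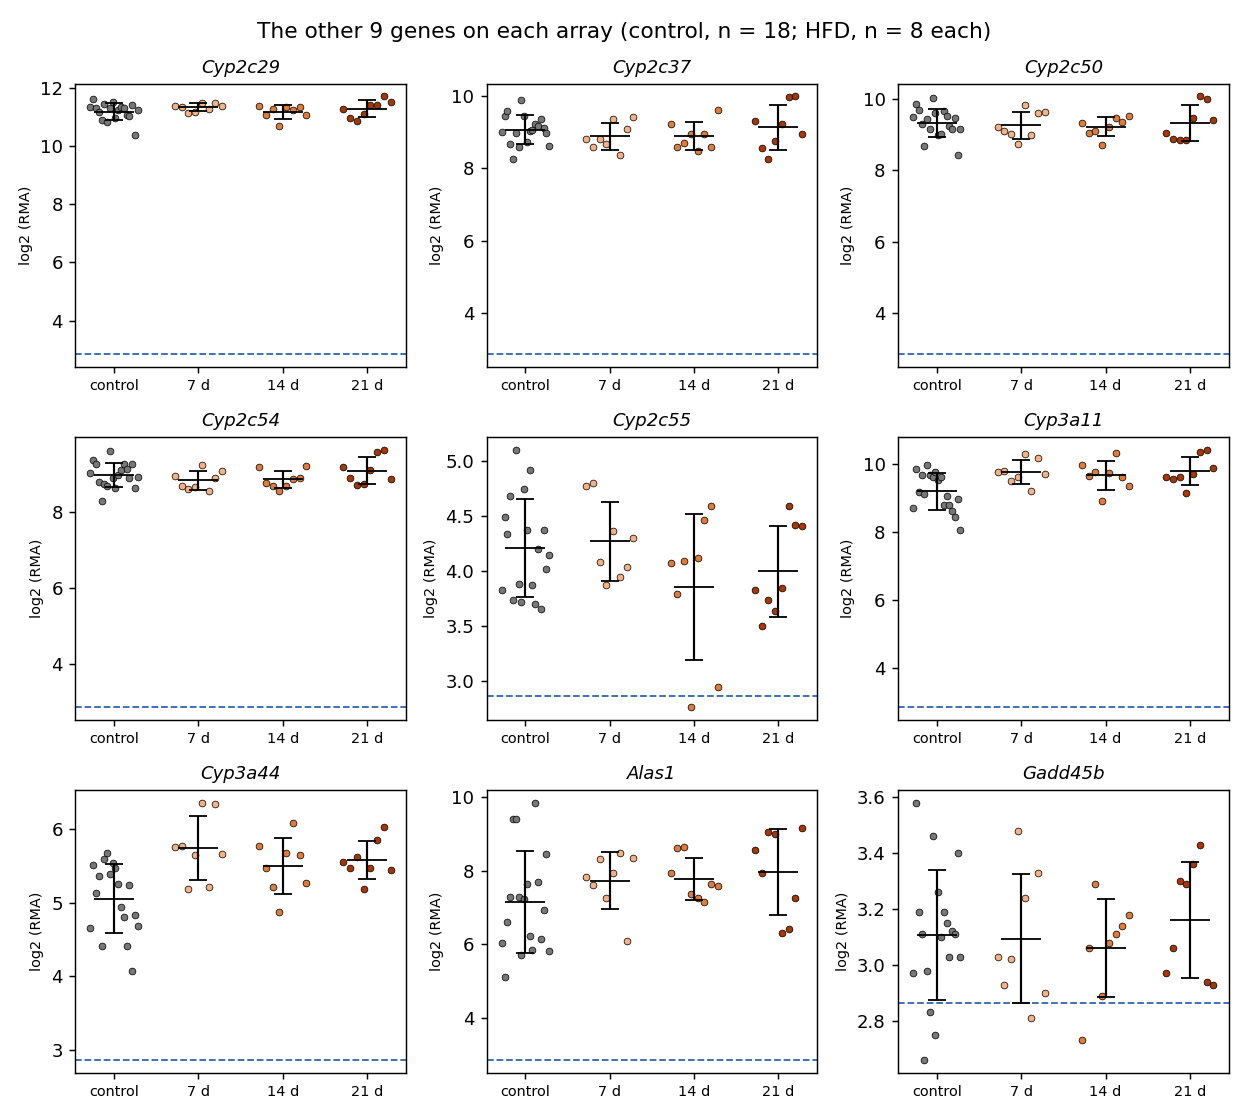
The other 9 members on each array (points, log2 RMA value) in controls and at 7, 14 and 21 days of HFD, with mean and SD in black and the background level of 2.86 as a dashed line; each panel has its own axis. Cyp3a11 and Cyp3a44 sit somewhat higher after HFD with wide overlap, Alas1 spreads from 5.12 to 9.84 among the controls, and Gadd45b stays between 2.66 and 3.58 on all arrays.

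The 2 Cyp3a members were moderately higher at all 3 times. Cyp3a11, the main hepatic Cyp3a enzyme of mice and a standard PXR target, ran from 8.07 to 9.96 in controls (median 9.16), 9.21 to 10.30 at 7 days (median 9.73), 8.91 to 10.33 at 14 days (median 9.70) and 9.16 to 10.42 at 21 days (median 9.66). The HFD arrays filled the upper part of the control range, and 2, 1 and 2 of 8 exceeded it. The log2 change was 0.56, 0.47 and 0.60 (SE 0.19 each), or 1.48-fold, 1.38-fold and 1.51-fold. The 21-day value differed by array number without overlap. Cyp3a11 averaged 9.49 ± 0.23 on HFD arrays 1 to 4 and 10.09 ± 0.35 on arrays 5 to 8 (SD, n = 4 each), against 9.20 in controls.

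Cyp3a44, a Cyp3a gene that is female-predominant in mouse liver, ran from 4.07 to 5.68 in controls (median 5.19), 5.19 to 6.36 at 7 days (median 5.72), 4.87 to 6.08 at 14 days (median 5.56) and 5.19 to 6.03 at 21 days (median 5.52). Here 4, 3 and 2 of 8 HFD arrays lay above every control. Its log2 change was 0.69, 0.45 and 0.53 (SE 0.17 each). For 21 against 14 days the log2 change was 0.13 for Cyp3a11 (SE 0.22) and 0.08 for Cyp3a44 (SE 0.20).

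The Cyp3a changes depended on which controls were used. The controls numbered 1 to 9 averaged 9.51 ± 0.41 for Cyp3a11 and those numbered 10 to 18 averaged 8.88 ± 0.49 (SD, n = 9 each). Against controls 1 to 9 alone the log2 change of Cyp3a11 was 0.25, 0.15 and 0.28 at 7, 14 and 21 days, and against controls 10 to 18 alone it was 0.88, 0.78 and 0.91. For Cyp3a44 the values were 0.49, 0.25 and 0.33 against controls 1 to 9, and 0.89, 0.64 and 0.72 against controls 10 to 18. Whether the 2 sets of controls were processed apart is not given in the labels. Probe sets shared with other gene symbols exist for both, 1 for Cyp3a11 and 2 for Cyp3a44, and were not used; near-identical Cyp3a transcripts may still hybridise to each other's probes.

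Alas1, the rate-limiting enzyme of heme synthesis, which supplies the cofactor of every P450, varied widely among the controls (SD 1.39, n = 18). Controls ran from 5.12 to 9.84 (median 7.08), the 7-day arrays from 6.08 to 8.48 (median 7.88), the 14-day arrays from 7.16 to 8.63 (median 7.61) and the 21-day arrays from 6.31 to 9.17 (median 8.25). No HFD array lay outside the control range. The log2 change was 0.58, 0.62 and 0.81 (SE 0.45 each), with 95% intervals of -0.33 to 1.49, -0.29 to 1.54 and -0.10 to 1.73. Gadd45b, a stress-inducible gene that CAR activators induce in mouse liver, stayed near background, at 3.11 ± 0.23 in controls (SD, n = 18), 3.09 ± 0.23 at 7 days, 3.06 ± 0.18 at 14 days and 3.16 ± 0.21 at 21 days (SD, n = 8 each). Its log2 change was -0.01, -0.05 and 0.05 (SE 0.09 each).

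**Figure D3:**
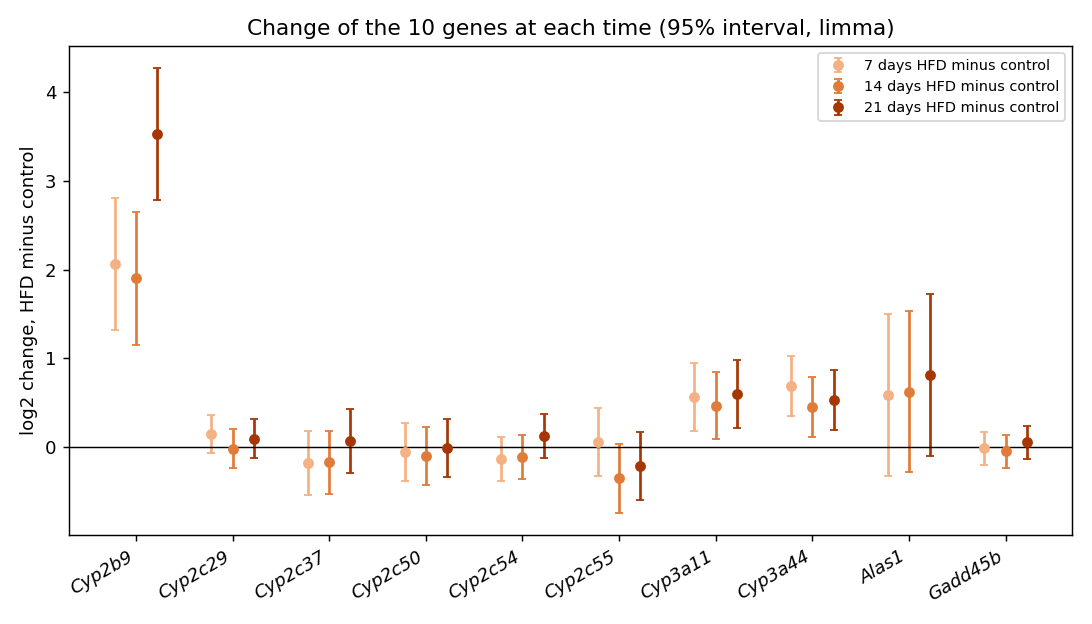
Log2 change against control (vertical axis) of the 10 members at 7, 14 and 21 days of HFD, with the 95% interval of limma. The change of Cyp2b9 reaches 3.52 at 21 days, that of Cyp3a11 and Cyp3a44 lies between 0.45 and 0.69, and that of the 5 Cyp2c genes between -0.35 and 0.15.

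By limma's adjusted p under 0.05, 2 of the 10 members were called at 7 days (Cyp2b9 and Cyp3a44, both higher), against 1.4% of all genes called in either direction and 1.16% called higher. At 14 days 1 member was called (0.667% of all genes, 0.506% higher) and at 21 days 1 (0.7% of all genes, 0.445% higher), in both cases Cyp2b9. The count at 7 days was 1 against controls 1 to 9 alone, and 1 without 7-day array 5 or 7. At 14 days it was 0 with HFD arrays 1 to 4 alone or against controls 10 to 18 alone. These contrasts chose the members, so nothing is read from the counts. The median log2 change of the 10 members was 0.10, -0.03 and 0.11 at 7, 14 and 21 days, beside -0.01, 0.00 and 0.01 over all genes. For 0 of the 10 did all HFD arrays of a time lie above all controls, as was the case for 0.228%, 0.0778% and 0.05% of all genes at 7, 14 and 21 days.

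Genes of the same pathway that are not members were tested in the same fit. Of 20 further CAR and PXR targets 13 had a single-symbol probe set, and Cyp2b10, Cyp2a5, Por and Ugt1a1 were not analysed here. At 7 days 0 of the 13 were called higher and 1 was called lower, at 14 days 0 either way, and at 21 days 0 higher and 3 lower. All genes were called higher at 1.16%, 0.506% and 0.445% and lower at 0.239%, 0.161% and 0.256% in the same comparisons. At an unadjusted p under 0.05 limma's counts in either direction were 2, 4 and 4 of the 13 at 7, 14 and 21 days. Those of all 17989 genes were 1669, 1079 and 1198. The list's median log2 change was 0.16, 0.03 and -0.09.

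The gene called lower at 7 days was Ces2a, a carboxylesterase: 8.93 ± 0.17 at 7 days (SD, n = 8) and 9.41 ± 0.16 in controls (SD, n = 18), log2 change -0.49 (SE 0.09, limma adjusted p = 2.54e-04), with 6 of 8 arrays below every control. At 21 days Ces2a was lower by a log2 change of -0.36 (adjusted p = 0.0274). The glutathione transferases Gstm3 (log2 change -0.80, SE 0.20, adjusted p = 0.0329) and Gstm2 (log2 change -0.59, SE 0.15, adjusted p = 0.0359) were also called lower at 21 days, with 8 of 8 arrays below the control mean for each. The 3 calls at 21 days are fragile: the count was 0 without 21-day array 6, 0 against controls 1 to 9 alone, and 1 without control 1, 4, 10, 13 or 16 or 21-day array 2, 3 or 5. The transporter genes Abcc3 and Slco1a4 had log2 changes of 0.42, 0.59 and 0.46 (SE 0.28) and of 0.32, 0.29 and 0.25 (SE 0.20), none of them called. At 21 days, limma on HFD arrays 5 to 8 alone gave Slco1a4 a change of 0.81 (adjusted p = 0.0469). The change over all 8 arrays was 0.25, so arrays 1 to 4 lay on average below the control mean.

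Of 23 other genes of the Cyp2a, Cyp2b, Cyp2c and Cyp3a subfamilies 15 were measured, and 0 were called higher at any time. Of all genes 1.16%, 0.506% and 0.445% were called higher at 7, 14 and 21 days. An unadjusted limma p under 0.05 in either direction was reached by 5, 5 and 6 of the 15. It was reached by 1669, 1079 and 1198 of all 17989 genes. Cyp2b13, Cyp2b19, Cyp2c65, Cyp3a16 and Cyp3a57 had means below the background level in every group. Cyp2c70, which makes muricholic bile acids in mice, was called lower at all 3 times. It averaged 11.131 ± 0.15, 11.095 ± 0.21 and 10.999 ± 0.35 at 7, 14 and 21 days (SD, n = 8 each), and 11.69 ± 0.27 in controls (SD, n = 18), with limma adjusted p = 0.0011, 9e-04 and 7.61e-05. At 21 days Cyp2c68 was also called lower (log2 change -0.70, SE 0.16, adjusted p = 0.0169), a call that ended without 21-day array 3 or 4 (adjusted p = 0.074 and 0.0631), with controls 1 to 9 or 10 to 18 alone (0.0647 and 0.101) and with HFD arrays 5 to 8 alone (-0.39, adjusted p = 0.34). With HFD arrays 5 to 8 alone Cyp2c70 was not called at 7 days (-0.55, adjusted p = 0.0595) or 21 days (-0.42, adjusted p = 0.111). Cyp2b13, a further female-predominant Cyp2b gene, stayed at or below the background level on 18 of 18 controls and on 8, 8 and 7 of 8 HFD arrays, with log2 changes of 0.05, -0.07 and 0.07.

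**Figure D4:**
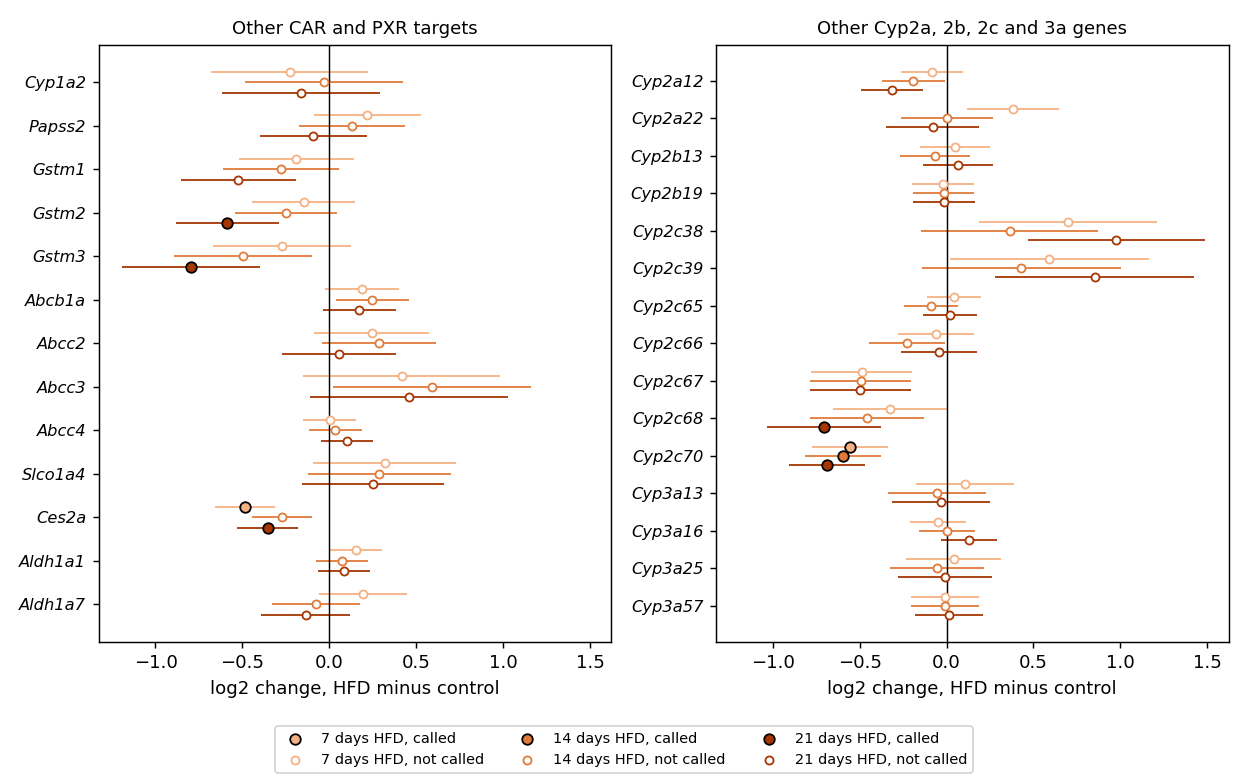
Log2 change against control (horizontal axis, with 95% interval) of the 13 measured further CAR and PXR targets (left) and the 15 measured other genes of the Cyp2a, Cyp2b, Cyp2c and Cyp3a subfamilies (right) at 7, 14 and 21 days of HFD; filled points passed limma's adjusted p under 0.05. All filled points lie below 0, and Cyp2c38 and Cyp2c39 lie above 0 at each time without being called.

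Of 12 receptors and partners 10 were measured, and Nr1i2 and the coactivator gene Ncoa6 were not analysed here. Egfr, the growth factor receptor whose signalling keeps CAR in the cytoplasm, was the single gene of the list called: it was lower at 7 days (7.85 ± 0.71, n = 8, and 8.81 ± 0.47 in controls, SD, n = 18, log2 change -0.96, limma adjusted p = 0.0106) and at 21 days (7.84 ± 0.52, n = 8, log2 change -0.97, adjusted p = 0.0169). At 14 days its log2 change was -0.63 (adjusted p = 0.422). Either control set alone ended both Egfr calls, with adjusted p between 0.0594 and 0.124 at like sizes of change. It also ended at 7 days without array 5 or 7 (adjusted p = 0.0575 and 0.0515) and at 21 days without array 3 or 6 (adjusted p = 0.0543 and 0.0765). Nr1i3, the CAR gene itself, had log2 changes of 0.17, 0.03 and 0.43 (SE 0.21), not called. With 21-day arrays 5 to 8 alone it was called, at 0.82 (adjusted p = 0.03).

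The remaining partners were not called at any time. The receptor partners Rxra and Rxrb had log2 changes of 0.07, 0.25 and 0.13, and of 0.03, 0.02 and -0.01. The liver transcription factor gene Hnf4a had -0.18, -0.19 and -0.26, the glucocorticoid receptor gene Nr3c1 0.11, 0.16 and -0.09, and the corepressor gene Nr0b2 0.16, 0.26 and -0.13. The coactivator genes Ppargc1a and Ncoa1 had 0.13, 0.17 and -0.01, and 0.06, 0.07 and -0.18, and Dnajc7, whose product retains CAR in the cytoplasm, 0.03, -0.11 and -0.22. At 21 days Ppargc1a took opposite directions in the arrays numbered 5 to 8 (0.41, adjusted p = 0.0392) and 1 to 4 (-0.43, adjusted p = 0.0333), each against all controls.

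Other lists around the members gave no calls. Of 7 measured genes of heme synthesis and breakdown besides Alas1, 6 of growth arrest and DNA damage besides Gadd45b, and 8 female-biased genes besides the members, limma called 0 at each time. Of the female-biased genes, A1bg, Cyp2b13, Cyp3a16, Hao2 and Sult3a1 had means below the background level in every group, so a change could be missed. Cyp2b13 and Cyp3a16 also belong to the subfamily list. At an unadjusted p under 0.05 limma's counts were 0, 0 and 0 for the heme genes, 2, 1 and 1 for growth arrest and 0, 0 and 0 for the female-biased genes at 7, 14 and 21 days. Those of all 17989 genes were 1669, 1079 and 1198. Between HFD times, limma's F test called 0 genes of any list named here, against 1 of all genes (0.00556%).

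The pattern of Cyp2b9 was most like that of genes outside the member set. Over the 42 arrays, the 6 genes with the highest Pearson correlation with Cyp2b9 were Cd36, a fatty acid translocase (r = 0.807), the fatty acid omega-hydroxylase genes Cyp4a10 (0.8015), Cyp4a14 (0.800) and Cyp4a31 (0.792), Vnn1, a pantetheinase (0.759), and Cyp2c38 (0.756). These values describe all 42 arrays, whose group means differ, and the arrays share their scaling. Of the members, Cyp3a44 came closest (r = 0.514, rank 92 of the genes) and Cyp3a11 next (0.4845, rank 120), followed by Alas1 (0.303) and Cyp2c29 (0.301). The other members lay between -0.0027 and 0.1745.

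The genes most like Cyp2b9 are set beside its further step between 7 and 21 days as a description. Cyp2b9 had the largest upward change of all genes between these times, so no gene could match its size. Cyp4a14 had log2 changes of 3.637, 3.003 and 3.533 against control at 7, 14 and 21 days (SE 0.26), and Cd36 1.89, 1.25 and 1.76 (SE 0.30). For 21 against 7 days the change was -0.10 for Cyp4a14 (SE 0.31), -0.13 for Cd36 (SE 0.35) and -0.19 for Vnn1 (SE 0.18), beside 1.46 for Cyp2b9 (SE 0.44). Cyp2c38, the sixth, had log2 changes of 0.70, 0.36 and 0.98 (SE 0.25, limma adjusted p = 0.0529 at 21 days). Cyp2c39, named after its values were seen, had 0.59, 0.43 and 0.85 (SE 0.28, adjusted p = 0.291 at 21 days). Both were highest at 21 days, as was Cyp2b9. Both were lowest at 14 days, as were Cyp2b9, Cyp4a14 and Cd36, though the 14-day and 7-day means of Cyp2b9 lay within their spread. These comparisons share the 18 controls.

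Whether members varied with Cyp2b9 from array to array within a group is independent of the group means that chose them. Over the 24 HFD arrays, with each group's mean removed, 9 correlations with Cyp2b9 were computed and 0 passed Benjamini-Hochberg adjustment by a two-sided permutation test within groups; 3 had an unadjusted p under 0.05. The highest was that of Cyp2c55 (Pearson r = 0.554, permutation p = 0.00999, adjusted p = 0.0899; Spearman rho = 0.481, permutation p = 0.0237), followed by Cyp3a44 (r = 0.486, permutation p = 0.0284, adjusted p = 0.128; rho = 0.465, permutation p = 0.0316) and Cyp2c29 (r = 0.41, permutation p = 0.0427, adjusted p = 0.128; rho = 0.445, permutation p = 0.033). Cyp3a11 had r = 0.401 (permutation p = 0.0607, adjusted p = 0.137; rho = 0.429, permutation p = 0.0432). Without the 2 arrays farthest from the median of Cyp2b9 these r were 0.468, 0.408, 0.385 and 0.289 for the 4 genes in that order. Within arrays 1 to 4 and 5 to 8 they were 0.606 and 0.533 for Cyp2c55, 0.633 and 0.423 for Cyp3a44, 0.54 and 0.688 for Cyp2c29, and 0.558 and 0.412 for Cyp3a11 (n = 12 each). Alas1 and Gadd45b showed r of 0.000697 and 0.0464.

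Of 45 pairs of members over the 42 arrays, with group means removed, 15 passed the adjustment, 12 of them positive and 3 negative, and 0 included Cyp2b9. In controls alone 5 pairs passed. The 12 positive pairs were 7 among the Cyp2c genes, Cyp3a11 with Cyp3a44, and Cyp2c50 and Cyp2c55 each with both Cyp3a genes. Cyp2c29, Cyp2c37 and Cyp2c54 passed with neither Cyp3a gene, and in controls 10 to 18 Cyp2c50 had r = -0.281 with Cyp3a11 and -0.3 with Cyp3a44. Cyp2c29 with Cyp2c37 had r = 0.723 and 0.113 in controls 1 to 9 and 10 to 18. In HFD arrays 1 to 4 and 5 to 8 that pair had 0.442 and -0.0539. Cyp2c29 with Cyp2c54 had 0.615, 0.791, 0.761 and 0.11 in the same order. The permutation treats the arrays of a group as exchangeable, so a level shared by arrays of like number can add to r. Without control 13, whose Cyp2b9 stood apart, pairs of Cyp2b9 with Cyp2c29 (r = 0.329, permutation adjusted p = 0.0322) and Cyp2c55 (r = 0.461, adjusted p = 0.0171) passed as well, and 20 pairs passed in all. The other 3 that passed only then were Cyp2c29 with Cyp3a11 (r = 0.39), Cyp2c29 with Alas1 (r = -0.399) and Alas1 with Gadd45b (r = -0.434). This exclusion was chosen after the data were seen.

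The closest pair was Cyp2c37 with Cyp2c54 (r = 0.855, rho = 0.816), followed by Cyp2c50 with Cyp2c54 (r = 0.845, rho = 0.83), Cyp3a11 with Cyp3a44 (r = 0.833, rho = 0.839), Cyp2c29 with Cyp2c50 (r = 0.795, rho = 0.757) and Cyp2c37 with Cyp2c50 (r = 0.755, rho = 0.737). For all 5 pairs the permutation p was 1e-05 for r and rho, the smallest that 100000 resamples can give, with adjusted p = 9e-05 for r and 7.5e-05 for rho. Without the 2 arrays farthest in the first gene of each pair, r was 0.824, 0.839, 0.846, 0.741 and 0.699 in that order. In 4 of these 5 pairs r was above 0.3 in both sets of controls and in both sets of HFD arrays, the exception being Cyp2c29 with Cyp2c50, at 0.257 in HFD arrays 5 to 8. Near-identical transcripts can hybridise to each other's probes, and how much of the covariation this gives was not tested.

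**Figure D5:**
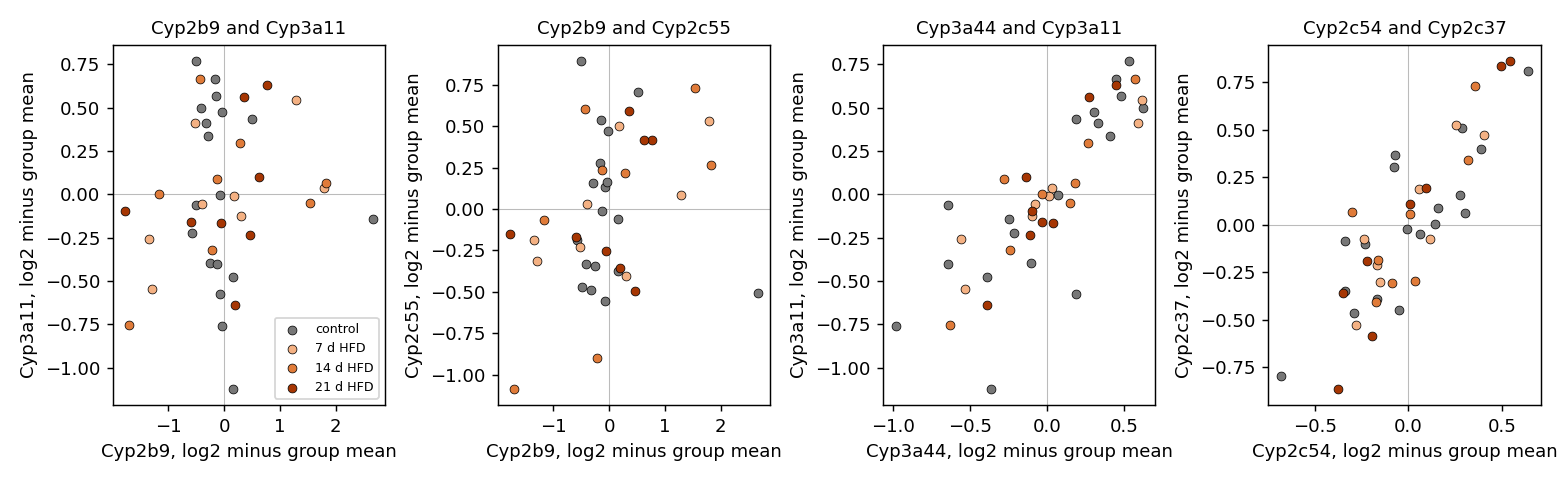
Deviations from the group mean (log2) for 4 pairs of members, with each point 1 of the 42 arrays, coloured by group. Cyp3a44 with Cyp3a11 (r = 0.833) and Cyp2c54 with Cyp2c37 (r = 0.855) lie along a line, whereas Cyp2b9 with Cyp3a11 and Cyp2b9 with Cyp2c55 spread widely and include control 13 at the far right.

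The 3 negative pairs all joined Alas1 to a Cyp2c gene: Cyp2c54 (r = -0.478, permutation p = 0.00384, adjusted p = 0.0133; rho = -0.499, permutation p = 0.00216), Cyp2c50 (r = -0.46, permutation p = 0.00478, adjusted p = 0.0154; rho = -0.461, permutation p = 0.00399) and Cyp2c37 (r = -0.411, permutation p = 0.0101, adjusted p = 0.0303; rho = -0.404, permutation p = 0.0133). Without the 2 arrays farthest in the Cyp2c gene, r was -0.362, -0.385 and -0.354. The correlation was strong in the controls numbered 1 to 9 (r = -0.847, -0.763 and -0.68) and did not hold in those numbered 10 to 18 (r = 0.0463, -0.164 and 0.195). In HFD arrays 5 to 8 it was -0.306, -0.386 and -0.304, and in arrays 1 to 4 -0.127, 0.344 and -0.243.

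The arrays numbered 1 to 4 and 5 to 8 of each HFD group differed in the nuclear RNA Malat1 without overlap, for example 6.97 ± 0.55 and 9.39 ± 0.18 at 21 days (SD, n = 4 each), and some members moved with it. At 21 days Cyp2c50 averaged 8.89 ± 0.10 on arrays 1 to 4 and 9.72 ± 0.35 on arrays 5 to 8, and Alas1 8.64 ± 0.52 and 7.29 ± 1.32 (SD, n = 4 each). The other Cyp2c members and both Cyp3a members also averaged higher on arrays 5 to 8 at that time. Cyp2b9 was alike on both sets at 21 days (6.20 ± 0.45 and 6.19 ± 1.19) and differed at 14 days (3.89 ± 0.92 and 5.25 ± 1.17), where its log2 change against control was 1.22 and 2.58. Of the marker lists, the mean of 10 measured pancreatic acinar genes ran from 3.44 to 8.90 in controls, 3.60 to 9.67 at 7 days, 3.53 to 9.69 at 14 days and 3.42 to 6.60 at 21 days. With that mean and Malat1 as covariates the log2 change of Cyp2b9 was 2.13, 1.93 and 3.48. The mean of 6 hepatocyte markers was 11.74, 11.72, 11.72 and 11.61 in the order control, 7, 14 and 21 days. The mean of 8 pericentral genes was 6.95, 7.00, 6.94 and 6.90 in the same order, and that of 4 periportal genes 9.92, 9.86, 9.90 and 9.82. Of 8 Kupffer cell and macrophage markers 3 were called higher at 7 days (Cd68, Vsig4 and C1qc) and 0 at 14 and 21 days; their part in the values of the members was not tested.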

How the data were processed

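The authors deposited 1 table of log2 expression values, which is on the RMA scale of Affymetrix Expression Console 1.1, per the submitters' processing notes; RNA was labelled for whole-transcript arrays, per the labels' protocols. RMA sets all arrays to 1 distribution, so a shift shared by most genes is not visible. Array medians lay between 3.08 and 3.28, and the number of arrays limits the precision. Of 32624 probe sets 19559 carried 1 gene symbol, 1469 several and 11596 none; only the first were used, the brightest per gene, and 1 probe set with missing values was left out. The 4 groups were fitted together with limma 3.58.1 (R 4.3.3), with Benjamini-Hochberg adjustment over 17989 genes and calls at 0.05, and the script was tested on simulated data. Correlations within groups and their permutations were computed with numpy 2.4.6, with ranks from scipy 1.17.1. The genes named are the members, the receptors and partners, Cyp2b13, Abcc3 and Slco1a4, up to 4 called genes per list and comparison, and the 6 genes most like Cyp2b9 by Pearson r. The members and lists were chosen with earlier results of these data known. Replicate numbers were not used to pair the samples in the main fit. Deviations of same-numbered arrays correlated above 0.1 in 5 of 24 pairs of a control with an HFD array (median r -0.0518). Pairs of HFD arrays did so in 17 of 24 (median 0.205), and those of 14 with 21 days in 7 of 8 (median 0.251). Whether same-numbered HFD arrays share a processing step was not tested. Alternatives were other scalings, weights, covariates, a replicate block, subsets by number and left-out arrays.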

Additional observations from a re-analysis of the deposited data

Results flagged for a closer look

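Single arrays lay far from the others of their group in 5 of 105 combinations of gene and HFD group tested (35 genes), by the gap to the nearest array over the range of the group; chance marks about 1 in 20. Hnf4a was 7.80 on 14-day array 6, against 8.20 to 8.55 on the other 7. Dnajc7 was 5.34 on 7-day array 4, against 6.05 to 6.68. Cyp2b13 was 2.98 on 21-day array 3, the single HFD array above the background level, against 1.91 to 2.32. Cyp2c70 was 10.64 on 14-day array 5, against 11.07 to 11.34, and Gstm3 was 6.88 on 21-day array 6, against 7.78 to 8.57. No member was among the 5.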

How the results depend on the processing

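Of 4874 values recomputed for 95 results, 4778 were counted as unchanged, 63 lost a call, 5 gained one, 27 moved and 1 reversed. Unchanged meant a shift below the gene's residual SD for members, counts within 1.5 times, and the same call for other genes. A change of direction in an uncalled gene was not counted. For example, Cyp2c55 at 7 days went from 0.06 to -0.02 without 7-day array 2. Cyp2b9 kept its direction throughout, with log2 changes of 1.81 to 2.25, 1.64 to 2.14 and 3.42 to 3.78 at 7, 14 and 21 days when single arrays were left out. With the replicate number as a block, though pairing by number was not established, they were 2.29, 2.13 and 3.75. Among HFD arrays alone the replicate block, added after the data were seen, left the Cyp2b9 change at 1.62 for 21 against 14 days (SE 0.50, against 0.48 without it), and with number means removed r with Cyp2b9 was 0.631 for Cyp2c55 and 0.433 for Cyp3a44. The count of members called at 7 days was 1 after quantile scaling, with the replicate block, with HFD arrays 1 to 4 or 5 to 8 alone and with controls 1 to 9 alone, and 1 to 2 without single arrays. At 14 days it was 0 with HFD arrays 1 to 4 or controls 10 to 18 alone, and at 21 days 2 with controls 10 to 18 alone. The count of further CAR and PXR targets called was 1 at 14 days after quantile scaling (Ces2a, limma adjusted p = 0.0173). At 21 days it was 0 with the replicate block or controls 1 to 9 alone, 1 with HFD arrays 1 to 4 or controls 10 to 18 alone, and 0 to 3 without single arrays. It was 0 without 21-day array 6 and 1 without control 1, 4, 10, 13 or 16 or 21-day array 2, 3 or 5. In controls alone 5 pairs of members covaried. Ppargc1a reversed at 21 days with HFD arrays 5 to 8 alone (0.41, limma adjusted p = 0.0392). The cause of these shifts was not tested, beyond the smaller numbers of arrays. Signal near background limits Cyp2b9 in controls and Gadd45b throughout.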
